A study of Homo sapiens with 10 samples.

Results

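Metallothioneins are small, cysteine-rich proteins that hold zinc, copper and cadmium, and their genes lie side by side in a cluster on the long arm of chromosome 16. Described here are 8 of these genes, MT3, MT2A, MT1E, MT1M, MT1A, MT1F, MT1G and MT1X, of 19974 protein-coding genes on chromosomes 1 to 22 and X in RefSeq GRCh38. They were listed by name, and the list was chosen by measured values of these libraries: their peaks, fold enrichments and covered percents were known, among them a lower coverage of MT1E in mutant cells. Their values between genotypes are therefore a description, with no test.

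RNA-DNA hybrids form when a transcript pairs with its DNA template and displaces the other DNA strand, a structure called an R-loop. Metallothionein genes are short and GC-rich, and in many cell types zinc, cadmium and glucocorticoids raise their transcription strongly. Zinc loads the transcription factor MTF1, which binds short metal response elements before the start of the gene. MT2A and the MT1 genes are known from many tissues, whereas MT3 is known from brain and MT4, a gene of the cluster outside the 8, from squamous epithelium.

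In DRIP-seq, the S9.6 antibody enriches hybrids from sonicated nucleic acids before sequencing, here of U2OS cells, a human osteosarcoma line. Cells were either WT (wild type) or TDP1 H493R, a mutation that causes SCAN1, a spinocerebellar ataxia with axonal neuropathy. TDP1 is the enzyme that clears trapped topoisomerase 1 from DNA ends. Peak lists of 5 libraries were used: 2 of WT, 2 of the mutant line SCAN1#1 and 1 of the mutant line SCAN1#2. Replicate 1 of WT and of SCAN1#1 came from experiment 1, and the other libraries, replicate 2 of WT, SCAN1#1 and SCAN1#2, from experiment 2. No treatment is given for any group, and the labels say neither whether a mutant line is 1 clone nor whether replicates were separate cultures, so spreads between them may be technical. Antibody lots differed between the experiments. Whatever else differed between them cannot be told apart from the lots. Input samples were not analysed here. The read depth of the libraries is unknown.

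The lists held 63456 to 110745 peaks, the shortest in SCAN1#1 replicate 1 and the longest in SCAN1#1 replicate 2, and covered 41.4 to 66.8 Mb. Of 10 osteosarcoma and mesenchymal marker genes, 8 had a peak in all 5 libraries and 0 had none. Of 17 markers of other lineages, 4 (epithelial or neuronal) had a peak in all 5 libraries and 9 had none in any, among them the liver genes ALB, APOA1 and TTR. Of all protein-coding genes, 53.6% had a peak in all 5 libraries and 18.7% had none, and the markers were not matched for gene length. A peak of hybrids is not a measure of RNA level.

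The RefSeq promoter table held 2 of the 8 genes, MT2A and MT1X, and only these could be shown. MT2A had peaks in every library and MT1X in none. MT1E was not in that table. Each sequence is the 250 bases before the gene start on GRCh38.p14, plus strand, 5′ to 3′, at chr16:56608334-56608583 for MT2A and chr16:56682220-56682469 for MT1X. Capitals mark the core of the metal response element, searched as TGCACNC and TGCGCNC on both strands, so that matches to the minus strand read as GNGTGCA or GNGCGCA. No 2 matches overlapped.
MT2A: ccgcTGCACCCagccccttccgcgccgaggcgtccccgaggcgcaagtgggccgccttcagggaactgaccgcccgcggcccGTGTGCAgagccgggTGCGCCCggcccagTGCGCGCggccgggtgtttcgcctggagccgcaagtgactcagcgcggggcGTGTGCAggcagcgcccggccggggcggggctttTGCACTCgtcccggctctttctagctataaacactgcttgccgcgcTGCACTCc
MT1X: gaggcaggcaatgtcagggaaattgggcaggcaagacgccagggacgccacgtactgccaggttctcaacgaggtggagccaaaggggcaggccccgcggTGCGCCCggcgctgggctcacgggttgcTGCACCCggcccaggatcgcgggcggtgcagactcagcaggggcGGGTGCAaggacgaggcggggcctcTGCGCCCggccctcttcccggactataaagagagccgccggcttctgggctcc
MT2A held 7 such cores and MT1X 4, whereas 24.8% of 34943 RefSeq windows of this length held at least 1. As many as in MT2A were found in 0.0315% of the windows and as many as in MT1X in 0.369%. Nearest to the start, MT2A had a core from position -8 to -2, and MT1X one from -53 to -47, counted back from the first base of the gene as position 0. A TATA box (TATAAA, either strand, in 10.8% of the windows) lay at -29 to -24 in MT2A and at -30 to -25 in MT1X. GC content was 73.2% in the MT2A window and 70% in that of MT1X, and an alignment of the 2 windows had 54.5% identical columns. MT1X, without any peak, carried the same kind of elements as MT2A, which had peaks in every library. Whether such elements go with peaks was not tested. A match is a description of letters and not a measured binding site.

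The cluster, from MT4 to MT1X, spanned chr16:56565073-56684196, 119.1 kb with 16 genes, of which 5 are pseudogenes. Genes of the 8 were 914 to 1727 bases long. Each was widened by 1 kb at both ends to form its window, and a peak counted for a gene when it shared at least 1 base with the window. MT2A and MT1E had a peak in all 5 libraries. MT1F had one in 4 libraries. MT3, MT1M, MT1A, MT1G and MT1X had none in any library.

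So 2 of the 8 genes were covered in every library and 5 in none. Over all protein-coding genes the shares were 53.6% with a peak in all 5 libraries and 18.7% with none. Among the 1249 protein-coding genes of up to 2000 bases, which are the closer comparison because a short gene offers fewer bases to a peak, the shares were 17.5% and 65.4%. The presence of peaks in 2 of 8 genes and their absence in 5 of 8 were near those of other short genes.

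Absence of a peak means that no stretch passed the authors' caller, whose lowest deposited -log10 q was 2.00 to 2.01 in the 5 lists. It does not show that no hybrid was present. Metallothionein genes and pseudogenes are close copies of each other. How reads that fit several copies were placed is not stated in these sources, and its part in the peak-free genes was not tested.

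Peaks lay mostly in the front of the cluster. From MT4 up to the window of MT1M, over 67.6 kb, WT had 8 peaks in replicate 1 and 11 in replicate 2, SCAN1#1 had 5 and 11 in the same order, and SCAN1#2 had 12. From the window of MT1M to the end of that of MT1X, over 53.5 kb, the same libraries, in the same order, held 0, 2, 1, 1 and 1 peaks. Peaks covered 4.80% to 11.3% of the front stretch and 0% to 1.18% of the rear stretch, so the rear was lower in every library. The boundary was placed behind MT1E with the peaks known, so the lower rear follows in part from that choice. MT1M, MT1A, MT1F, MT1G and MT1X all lie in that rear stretch.

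**Figure D1:**
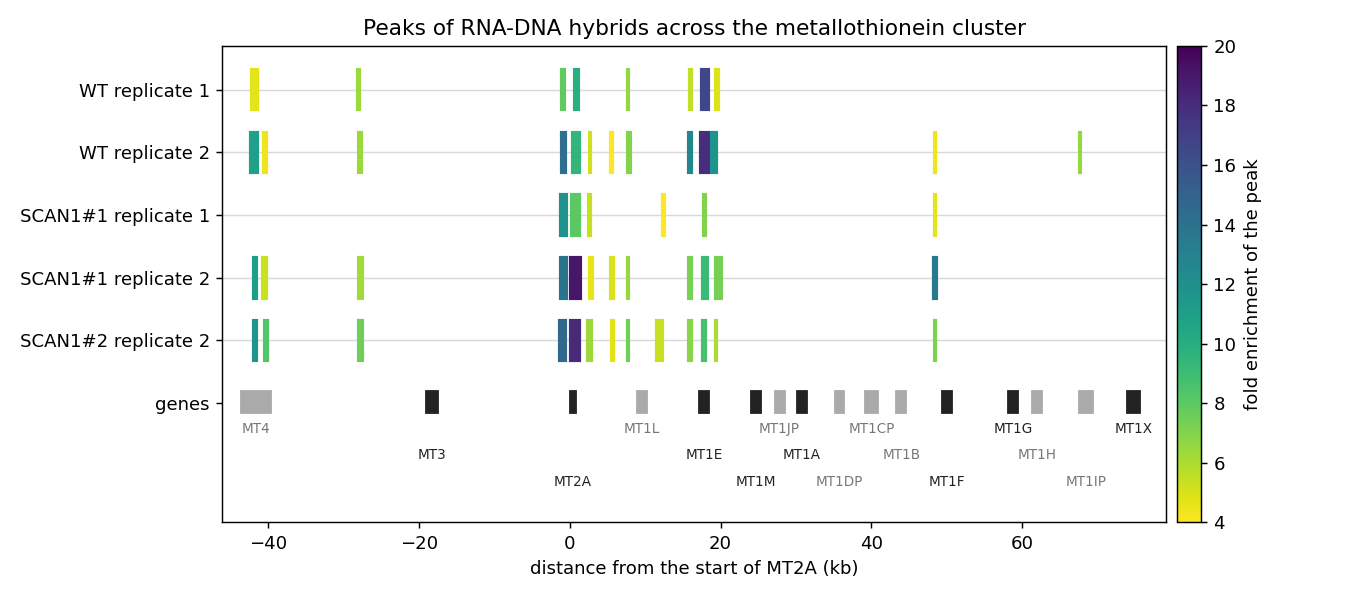
Peaks of the 5 libraries over the metallothionein cluster, one row per library, with distance from the start of MT2A in kb on the horizontal axis and colour for the fold enrichment of each peak. Genes are drawn below, black for the 8 genes and grey for the other metallothionein genes and pseudogenes; peaks crowd around MT2A and MT1E, and the stretch from MT1M to MT1X holds 0 to 2 peaks in a library.

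Merging the lists gave 14 separate regions with a peak, of which 3 had one in all 5 libraries and 7 in 4 libraries. Among the rest, 1 had a peak in a WT library alone. Another, at chr16:56620091-56621195, had one in SCAN1 libraries alone, with fold enrichment 3.84 in SCAN1#1 replicate 1 and 5.35 in SCAN1#2. Of the 14, 6 touched the window of MT2A, MT1E or MT1F and 4 touched no metallothionein window. The 3 regions found in every library lay before MT2A, over MT2A and over MT1E. The region over MT2A followed the one before it after a gap of 349 bases. Between the regions before and over MT1E were 1048 bases. The other windows with peaks belonged to MT4, MT1L and MT1IP.

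MT2A, the metallothionein known to be most widely transcribed, lies at chr16:56608584-56609497. Its window was covered by 38.4% in WT replicate 1 and 50.9% in WT replicate 2. The SCAN1#1 libraries reached 60.1% (replicate 1) and 71.2% (replicate 2), and the SCAN1#2 library 63.7%. Pairs of values below keep this order, replicate 1 before replicate 2. All 3 SCAN1 libraries stood above both WT libraries, with no overlap. Mean coverage of the SCAN1 group was 65.0% ± 5.69 (SD, n = 3), against 44.7% ± 8.86 (SD, n = 2) for WT, a difference of 20.3 percentage points. Within the experiments, SCAN1#1 was 21.7 points above WT in the first and 20.3 points in the second, and SCAN1#2 was 12.7 points above WT in the second. Coverage higher in all SCAN1 than in both WT libraries was seen in 9.48% of the 8472 protein-coding genes tested below.

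Each library had the same pair of peaks at MT2A, a first before the gene and a second over it. The summit of the first peak lay between positions -828 and -761 from the gene start, a spread of 67 bases over the 5 libraries. It was 600 and 685 bases wide in WT, 799 and 926 bases in SCAN1#1 and 966 bases in SCAN1#2. Its fold enrichment, the authors' ratio of signal over the caller's background estimate, was 7.91 and 14.3 for the WT pair, 12.0 and 13.8 for SCAN1#1, and 14.7 for SCAN1#2. Widths of this peak thus separated the genotypes and its fold enrichments overlapped. How often other peaks separate the genotypes in width, position or fold enrichment was not computed, here or for the peaks described below. The caller sets fold enrichment within each library, so means and differences across libraries describe these values and are not measured changes in hybrid level.

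The second peak of MT2A began inside the gene and ran past its end. It began 572 and 339 bases after the gene start for WT, 164 and 84 bases after it for SCAN1#1, and 58 bases after it for SCAN1#2. Its width was 664 and 983 bases in WT, 1156 and 1366 bases in SCAN1#1 and 1297 bases in SCAN1#2. In all 3 SCAN1 libraries this peak was wider and began nearer to the gene start than in either WT library. Its fold enrichment was 9.93 and 9.54 in WT, 8.04 and 19.1 in SCAN1#1 and 18.1 in SCAN1#2, so SCAN1#1 replicate 1 lay below WT and the SCAN1 libraries of experiment 2 above it.

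With the added bases left off, peaks covered 37.4% and 62.9% of the MT2A gene in WT, 82.1% and 90.8% in SCAN1#1 and 93.7% in SCAN1#2. The difference of the group means was then 38.7 points. The difference was larger over the gene than over the window, and the second peak differed most at the end that faces the promoter.

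Between the first and second peaks of MT2A was a stretch without a peak, 1117 and 838 bases long in WT, 570 and 375 bases in SCAN1#1 and 500 bases in SCAN1#2. Free of peaks in all 5 libraries were the 349 bases at chr16:56608293-56608641. The promoter sequence of MT2A printed above lies whole inside this stretch, so 0 of its bases were covered in any library. Peaks flanked the core matches marked in that sequence on both sides and did not reach them. Bases outside it were not searched for the core.

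**Figure D2:**
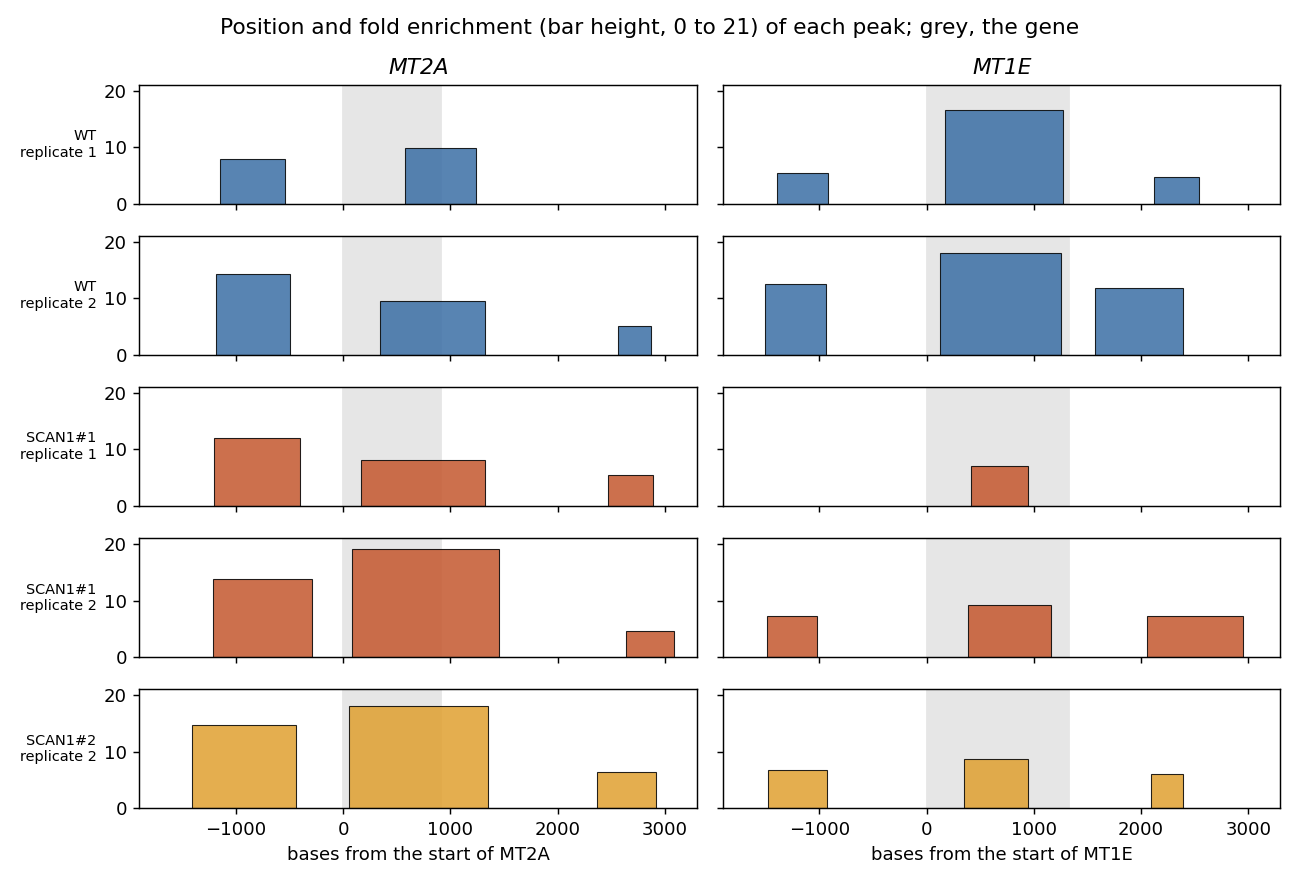
Every peak within the drawn range around MT2A (left) and MT1E (right), one row per library, with bases from the gene start on the horizontal axis and fold enrichment as bar height; the gene is grey. At MT2A the second peak reaches nearer to the gene start in SCAN1 than in WT, and at MT1E the peak over the gene is lower and narrower in SCAN1 than in WT.

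MT1E, which encodes an MT1 isoform, lies at chr16:56625781-56627112. Its window was covered by 41.8% and 58.4% in the WT pair, by 15.8% and 31.5% in the SCAN1#1 pair and by 27.4% in the SCAN1#2 library. All 3 SCAN1 libraries stood below both WT libraries, the reverse of the order at MT2A. For SCAN1 the mean was 24.9% ± 8.10 (SD, n = 3), against 50.1% ± 11.8 (SD, n = 2) for WT. Against WT of the same experiment the differences were -25.9 and -27.0 points for SCAN1#1 and -31.0 points for SCAN1#2. A coverage lower in all SCAN1 than in both WT libraries was seen in 6.86% of the 8472 tested genes.

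The main peak of MT1E lay inside the gene, over chr16:56625909-56627055 in the union of the libraries. Its fold enrichment was 16.6 and 17.9 in WT, 7.0 and 9.15 in SCAN1#1 and 8.63 in SCAN1#2. The SCAN1 mean was 8.26 ± 1.12 (SD, n = 3), against 17.2 ± 0.945 (SD, n = 2) for WT. Divided by the median fold enrichment of the peaks in the same library, the values were 3.42 and 3.15 in WT, 1.44 and 1.59 in SCAN1#1 and 1.45 in SCAN1#2. This peak was the strongest of the whole cluster in each WT library but in none of the SCAN1 libraries.

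Within its own list, the peak over MT1E exceeded 99.1% and 98.8% of all peaks in WT, 85.9% and 85.9% in SCAN1#1, and 83.2% in SCAN1#2. The lists differ in length, so these ranks describe each list and no change. Widths were 1103 and 1122 bases in WT, 528 and 775 bases in SCAN1#1 and 597 bases in SCAN1#2. At both ends the peak stopped short of its WT extent in all 3 SCAN1 libraries. Its beginning lay 128 to 172 bases after the gene start in WT and 346 to 415 bases after it in SCAN1, and its end 1249 to 1274 bases in WT and 942 to 1159 bases in SCAN1. Summits stayed between 509 and 693 bases after the gene start in all 5 libraries, so position was shared and extent was not.

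MT1E also had a weaker peak on either side. The one before it, with fold enrichment 5.54 and 12.5 in WT, had 7.27 in SCAN1#1 replicate 2 (where it ended just outside the window), 6.82 in SCAN1#2 and was not called in SCAN1#1 replicate 1. The one after it had 4.82 and 11.7 in WT, 7.31 in SCAN1#1 replicate 2, 5.97 in SCAN1#2 and again no call in SCAN1#1 replicate 1. These flanking peaks overlapped between the genotypes, unlike the peak over the gene.

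SCAN1#1 replicate 1, the library without flanking peaks, had the shortest list, and it also lacked the peaks at MT4 and MT1L that the other 4 libraries had. SCAN1#1 replicate 2 had the longest list and an MT1E coverage of 31.5%. Using the same number of the strongest peaks from each library, 63456, left every MT2A and MT1E coverage as given above. Every peak of MT2A and MT1E was among those kept, so this trimming could not change their values. Any part of list length or read depth in them was not tested. The covered percents of the 8 genes in each library are plotted from the lists of equal length.

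**Figure D3:**
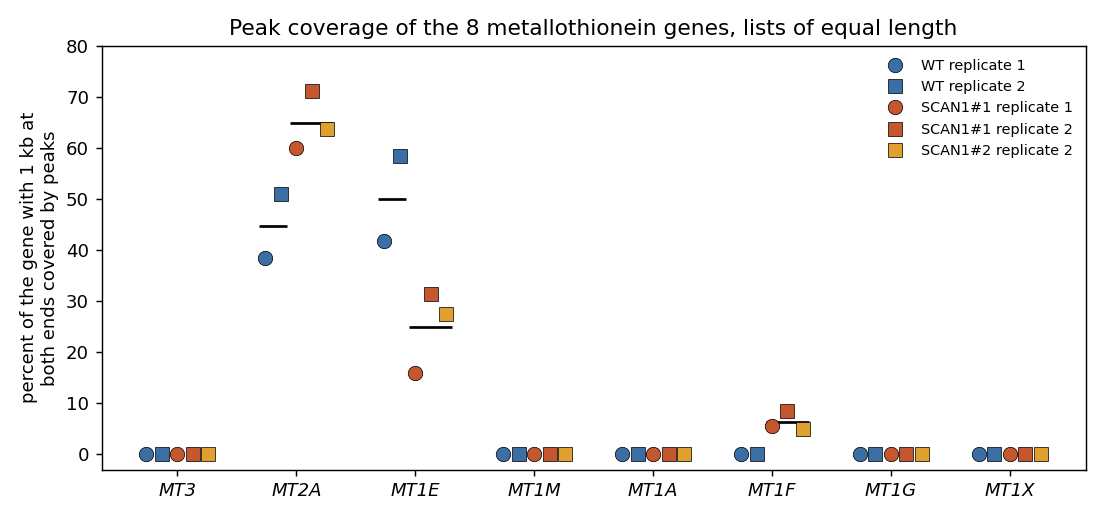
Percent of each of the 8 gene windows covered by peaks, from 63456 peaks per library; points are libraries, coloured by line and shaped by replicate, and bars are the means of WT (n = 2) and SCAN1 (n = 3) where coverage was above 0. MT2A is higher and MT1E lower in all 3 SCAN1 libraries than in both WT libraries, and 5 genes lie at 0 throughout.

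Strongest peaks of the 2 genes were also set against each other within each library, which needs no scaling between libraries. The strongest MT2A peak was the one before the gene in WT replicate 2 and SCAN1#1 replicate 1, and the one over the gene elsewhere. The ratios thus do not compare the same MT2A peak in every library. The strongest peak of MT1E was 1.67 and 1.26 times that of MT2A in WT. In SCAN1#1 the MT1E peak was 0.586 and 0.479 times that of MT2A, and in SCAN1#2 0.476 times. MT1E led in WT and MT2A led in SCAN1, in every library of each genotype.

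**Figure D4:**
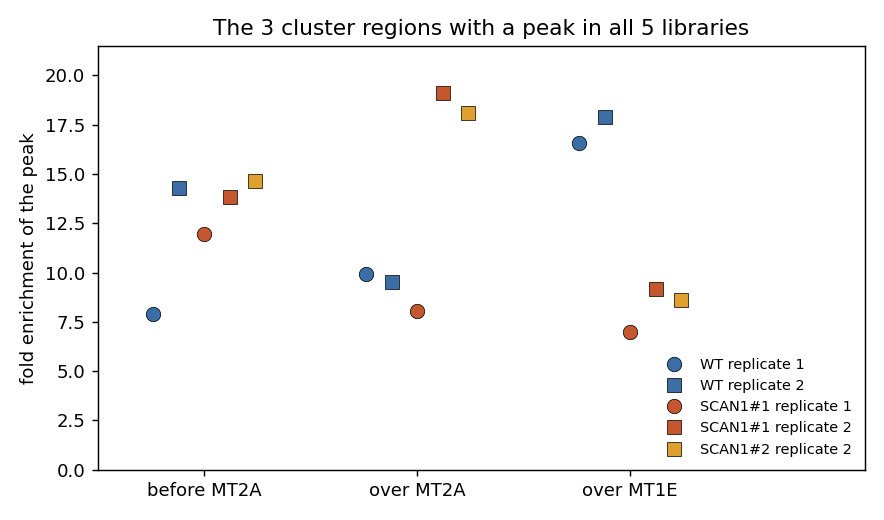
Fold enrichment of the 3 peaks of the cluster that were called in all 5 libraries (before MT2A, over MT2A and over MT1E), one point per library, coloured by line and shaped by replicate. Over MT1E the SCAN1 libraries sit at 7.0 to 9.15 and the WT libraries at 16.6 and 17.9, whereas at both MT2A peaks the genotypes overlap.

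MT1F, a further MT1 isoform at chr16:56657959-56659303, had no peak over the gene in any library. A small peak lay between positions -1159 and -715 from its start, at chr16:56656800-56657244, and only part of it fell in the window. Its fold enrichment was 4.43 in WT replicate 2, 4.64 and 13.5 in the SCAN1#1 pair and 7.14 in SCAN1#2, with no call in WT replicate 1. In the lists as deposited it covered 0% and 5.17% of the window in WT, 5.56% and 8.55% in SCAN1#1 and 4.93% in SCAN1#2, so the genotypes overlapped. With lists of equal length the peak of WT replicate 2, of -log10 p 7.42, dropped out, and the difference of the group means went from 3.76 to 6.35 points. The lowest -log10 p kept was 7.69 in WT replicate 2 but 3.87 in SCAN1#1 replicate 1. There the MT1F peak, of -log10 p 6.90, stayed, so the larger difference follows from unlike cutoffs.

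MT3, known as the neuronal metallothionein, lies at chr16:56589528-56591085 and its window was at 0% in each of the 5 libraries. MT1M, at chr16:56632659-56633981, MT1A, at chr16:56638666-56640087, and MT1G, at chr16:56666730-56668065, were at 0% throughout as well. So was MT1X, at chr16:56682470-56684196, the last gene of the cluster. Coverage of 0% in all 5 libraries was shared by 4547 protein-coding genes, 22.8% of all, when lists of equal length were used. These 5 genes gave no contrast between genotypes or experiments.

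Ordered by mean coverage over the 5 libraries, MT2A came first with 56.8%, then MT1E with 35.0% and MT1F with 3.81%, and the other 5 genes had 0%. In the 3 SCAN1 libraries MT2A stood above MT1E, at 60.1% to 71.2% against 15.8% to 31.5%, while in both WT libraries MT1E was the higher of the pair. Among the 8472 protein-coding genes whose mean coverage was 2% or more, 91.7% lay below MT2A, 83.8% below MT1E and 25.5% below MT1F.

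For the whole table, limma called 0 of those 8472 genes (0%) between SCAN1 and WT at an adjusted p of 0.05, although at an unadjusted p under 0.05 there were 164 higher and 131 lower. Leaving out WT replicate 2 turned that balance to 104 higher and 349 lower. With the experiment as a block it called 0 as well, and on the log2(percent + 1) scale 4. The median difference of the 8 genes was 0 points, beside 0.081 points over all tested genes, and 3 of the 8 (MT2A, MT1E and MT1F) were among those tested. That median of 0 is fixed by the 5 genes without a peak, which the minimum coverage keeps out of the tested genes, so the medians are not alike.

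Experiments were compared over WT and SCAN1#1, which have a library in each. The covered percents of all 5 libraries were known when the genes were chosen, so the members' values here are a description too, with no test. MT2A was covered by 49.2% ± 15.3 in experiment 1 and 61.1% ± 14.3 in experiment 2 (SD, n = 2 each). MT1E was covered by 28.8% ± 18.3 and 44.9% ± 19.1 in the same order. Both were higher in experiment 2 in WT and in SCAN1#1 alike, by 12.5 and 11.2 points for MT2A and by 16.7 and 15.6 points for MT1E.

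The mean shift at MT2A was 11.8 points, and it went to 1.01 points without WT replicate 1 and to 22.7 without SCAN1#1 replicate 1. That at MT1E was 16.1 points, with 2.64 points without WT replicate 2 and 29.6 without SCAN1#1 replicate 2. Each of these shifts thus moved widely with 1 library. For MT1F the shift was 1.49 points, and it was -1.29 points without WT replicate 1. limma called 0 of 8384 genes (0%), although at an unadjusted p under 0.05 there were 265 higher and 1086 lower, and it called 5 on the log2(percent + 1) scale. With the lists as deposited those counts were 696 higher and 620 lower, and with peaks of -log10 q of at least 5 they were 762 and 408, so their balance depended on the lists. The median shift over all tested genes likewise turned, from -1.01 points with lists of equal length to 0.909 points with the lists as deposited.

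By the Euclidean distance of covered percents over the 5 libraries, the protein-coding genes outside the cluster nearest to MT2A were RBM8A, at 13.0 points, PNN, at 16.3, and BBLN, at 16.7. RBM8A encodes a core protein of the exon junction complex. Nearest to MT1E were SOCS3, at 11.0 points, CCDC167, at 16.1, and LOXL4, at 16.3. SOCS3 encodes an inhibitor of cytokine signalling and LOXL4 an enzyme of the lysyl oxidase family. SOCS3 was covered by 43.4% and 49.9% in WT, 19.5% and 36.8% in SCAN1#1 and 25.9% in SCAN1#2, the same order of libraries as MT1E. These distances were measured over 5 libraries that share 2 experiments.

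Differences between the genotypes were small in points for the 5 protein-coding genes next to the cluster on either side. They ran from -0.676 points for OGFOD1 to 1.45 points for NUDT21, and coverage of these genes was under 8% in every library. In proportion some were larger, with means of 2.00% in WT and 1.32% in SCAN1 for OGFOD1, and 3.04% and 4.49% for NUDT21. Points at such low coverage cannot be set against those at MT2A or MT1E. NUDT21 encodes a subunit of the cleavage factor that picks polyadenylation sites, and HERPUD1, on the other side, a protein of the endoplasmic reticulum stress response. Of the 10, 9 had a peak in all 5 libraries, 3 were tested and limma called 0, against 0% of all tested genes.

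Genes that regulate metallothioneins were read from a list of 10, of which 9 were tested. Differences between SCAN1 and WT were positive in 5 and negative in 4, with a median of 0.821 points, and limma called 0. MTF1, the metal-sensing factor, which the naming rule did not choose, was covered by 5.26% and 3.01% in WT, 5.48% and 5.08% in SCAN1#1 and 5.52% in SCAN1#2. WT replicate 1 lay within the range of the SCAN1 libraries. The ends of the list were SP1 at -2.15 points, ARNT at -2.14, USF1 at 1.39 and MTF2 at 1.55.

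Zinc transporters move the metal that metallothioneins store. Of 24 listed, 14 were tested, 6 with a positive and 8 with a negative difference (median -0.237 points), and limma called 0. SLC30A1, the zinc exporter of the plasma membrane and itself a target of MTF1, had 5.18% and 6.96% in WT, 12.1% and 18.3% in SCAN1#1 and 8.16% in SCAN1#2. It stood higher in all SCAN1 libraries than in both WT libraries, an order seen in 9.48% of the 8472 tested genes. The naming rule chose it for the largest difference of its list, so this order is a description. SLC39A5, a zinc importer, had the lowest difference, -19.5 points, and SLC39A1 followed with -10.8. SLC39A5 had 83.4% and 47.5% in WT, 68.3% and 39.3% in SCAN1#1 and 30.2% in SCAN1#2. SLC39A1 had 43.7% and 18.9% in WT, 21.6% and 17.6% in SCAN1#1 and 22.3% in SCAN1#2. The genotypes thus overlapped at both genes.

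Copper and iron handling genes, 6 tested of 15, had 4 positive and 2 negative differences with a median of 0.519 points. Their ends were the copper chaperone ATOX1 at -3.76 points and the copper-zinc superoxide dismutase SOD1 at 5.99. Glutathione and oxidative stress genes, 12 tested of 15, had 7 positive and 5 negative differences with a median of 0.478 points. The thioredoxin gene TXN was at 8.18 points and GPX4, a glutathione peroxidase that reduces lipid peroxides, at -2.91. limma called 0 genes of either list.

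Glucocorticoid response genes were listed because the hormone also induces MT2A. Of 10, 5 were tested, with 3 positive and 2 negative differences and a median of 3.21 points, and limma called 0. NFKBIA, the inhibitor of NF-kappa-B, had 34.0% and 40.3% in WT, 44.7% and 80.4% in SCAN1#1 and 52.5% in SCAN1#2. The phosphatase gene DUSP1 was at -2.02 points. No gene of the 5 lists passed the test.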

How the data were processed

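Peak lists of 5 DRIP-seq libraries of U2OS cells were used, with groups and replicate numbers taken from the labels. The submitters' processing notes name MACS3 3.0.0a6, deepTools 3.5.1, SAMtools 1.9, BWA 0.7.17-r1188, FastQC 0.11.5 and build hg38, without their roles. Which control and options went into peak calling is not stated in these sources. Per the layout of the deposited files, each peak has the authors' fold enrichment (a ratio over a background estimate), its -log10 p and -log10 q, and a score, which was not used. Files give peaks per library and no read counts, so no counting interval could be computed.

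Coverage is the percent of a protein-coding gene of RefSeq GRCh38.p14, with 1 kb on either side, that lies under peaks. Each library entered with its strongest 63456 peaks by -log10 p, as many as the shortest list has. The lowest -log10 p kept therefore differed, from 3.87 in SCAN1#1 replicate 1 to 9.92 in SCAN1#1 replicate 2. Presence of a peak was read from the lists as deposited. Genes whose mean coverage over the libraries compared reached 2% were tested with limma 3.58.1 in R 4.3.3, by lmFit and a trended eBayes, with no block and a threshold of 0.05 after Benjamini-Hochberg adjustment. The pipeline was tested on simulated shifts with normal noise, where the minimum coverage did not act. Coverage here is bounded and often 0, so that run does not give the power of the tests. Python 3.11.15, numpy 2.4.6, pandas 2.3.3, matplotlib 3.10.9 and Biopython 1.88 were used. Coordinates are 1-based. Alternatives were other lists, windows, filters, scales and blocks, and leaving out each library.

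Members, gene lists and tests were chosen with earlier results of these data known. The naming rule took the 8 genes, the other metallothionein genes of the cluster, the 5 nearest protein-coding genes on either side, the 3 genes closest in coverage to each of MT2A, MT1E and MT1X, and the 2 highest and 2 lowest differences of each list, not all of which are given values, and 1 of which is not reported here; for MT1X no likeness could be ranked. The labels give replicate numbers as experiments, so the numbers pair the samples. Over 8472 genes, the correlation of deviations from group means was 0.612 between WT and SCAN1#1 of experiment 1. In experiment 2, WT correlated by 0.325 with SCAN1#1 and by 0.470 with SCAN1#2. Deviations from a group mean cancel within each group, so these correlations depend on each other and are not separate evidence of pairing.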

Additional observations from a re-analysis of the deposited data

Results flagged for a closer look

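At the peak before MT2A, the fold enrichment of SCAN1#1 minus that of WT was 4.04 in experiment 1 and -0.44 in experiment 2, where SCAN1#2 minus WT was 0.373. At the peak over MT2A, SCAN1#1 minus WT was -1.89 in experiment 1 and 9.55 in experiment 2. For the same peak, experiment 2 minus experiment 1 was -0.393 in WT and 11.0 in SCAN1#1. Each of these drew attention because the sign differed between experiments or lines. Each value rests on 1 library a side, none of the differences was tested, and fold enrichment is set by the caller within each library.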

How the results depend on the processing

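Between genotypes limma called 0 genes under every alternative except the log2(percent + 1) scale, which called 4 (3 higher, 1 lower in SCAN1); between experiments that scale called 5 (1 higher, 4 lower) and every other alternative 0. The cause was not tested. With the replicate block, differences were 18.7 points at MT2A, -27.7 at MT1E and 6.24 at MT1F, and the block changed no call. Unadjusted counts between genotypes, 164 higher and 131 lower, were 104 and 349 without WT replicate 2 and 244 and 100 without SCAN1#2 replicate 2. Leaving out each library gave 14.0 to 26.6 points at MT2A, -33.5 to -16.9 at MT1E and 5.25 to 7.06 at MT1F. Without the added 1 kb the differences were 38.7 points at MT2A, -36.0 at MT1E and 0 at MT1F, because the small peak of MT1F lies outside the gene. MT1F moved to 3.76 points with the lists as deposited and to 1.91 with peaks of -log10 q of at least 5. Its shift between experiments, 1.49 points, ran from -1.29 without WT replicate 1, a reversed sign, to 5.77 without WT replicate 2 when libraries were left out, and was 6.86 with peaks of -log10 q of at least 5. The number of genes with a peak in all 5 libraries stayed at 2 of 8 under each alternative run. The median difference of the 8 genes was 0 in each, which 5 genes without a peak fix whatever the others show. MT1F gave no value between experiments without SCAN1#1 replicate 2 or without the added bases, since it was then under the minimum coverage. Read depth is unknown, so a missing peak cannot be told apart from low depth.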

Other observations

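MT4, at the front end of the cluster and known from squamous epithelium, had peaks inside the gene in 4 of the 5 libraries. Its window was covered, in the deposited lists, by 15.0% in WT replicate 1, 26.0% in WT replicate 2, 0% in SCAN1#1 replicate 1, 19.5% in SCAN1#1 replicate 2 and 19.7% in the SCAN1#2 library. These covered percents overlapped between the genotypes. The strongest of its peaks had a fold enrichment of 4.68 and 10.9 in WT, 11.0 in SCAN1#1 replicate 2 and 11.7 in SCAN1#2. The called SCAN1 values thus lay above both WT values, and SCAN1#1 replicate 1 had no call.

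Among the remaining genes, the pseudogene MT1L had a peak at the edge of its window in 4 libraries, with fold enrichments from 6.48 to 7.45, and the pseudogene MT1IP one in WT replicate 2 alone, of 6.59. A peak away from every metallothionein window, at chr16:56580439-56581185 between MT4 and MT3, was called in 4 libraries with fold enrichments from 6.20 to 7.52. Another, at chr16:56610949-56611669 behind MT2A, was called in 4 libraries, all but WT replicate 1, at 4.57 to 6.34. Promoter windows of MT1H and MT1B, genes without a peak in any library, held 8 and 3 cores of the metal response element, beside 7 in MT2A.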
